A study of Homo sapiens with 4 samples.

Results

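Hypoxia targets and glycolytic enzymes were followed through knockdown of ADAR, which edits adenosine to inosine where RNA is double-stranded, in HepG2-labelled and K562 cells. The set is a fixed list of 38 genes: the subunit HIF1A with 2 prolyl hydroxylases, 17 targets of hypoxia-inducible factor (HIF) outside glycolysis, 2 bifunctional PFKFB regulators and 16 glycolytic enzymes. The list was chosen with earlier results of these data known. Its counts beside those of all genes are therefore descriptions and not independent support. Members were found by gene symbol among transcript clusters with 1 annotated gene, taking the brightest cluster of a gene, and 33 of the 38 were measured, among 14232 genes in all. EGLN1, CA9, ANKRD37, GAPDH and PGAM1 had no such cluster and are not reported here. Many of the enzymes are HIF targets themselves, so the division is by role in the pathway and not by regulation.

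RNA came from cells labelled HepG2, a hepatocellular carcinoma line, and from K562, a leukaemia line with erythroid traits. Both lines carried a stably transfected plasmid, either with an siRNA against ADAR1 (ADARkd), which had been selected among several for its reduction of ADAR, or with a scrambled siRNA (SCR). Total RNA was hybridised to exon arrays, with 1 array per line and arm, 4 in all, so differences inside a line rest on single arrays and carry no p-value. The stated purpose was to see how ADAR acts on alternative splicing genome-wide. Values are log2 intensities per gene, and differences are ADARkd minus SCR on the log2 scale.

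HIF is a transcription factor of an alpha subunit and a constant partner. In the presence of oxygen, prolyl hydroxylases of the EGLN family modify the alpha subunit, which the VHL complex then marks for destruction, so its activity is set largely at the protein level. When oxygen is scarce, or the hydroxylases are inhibited, HIF binds short sites with the core ACGTG or GCGTG and raises genes for angiogenesis, pH control, mitophagy, collagen hydroxylation and glucose use. Glycolysis converts glucose to pyruvate in a chain of enzymes, most with several isoforms, and lactate dehydrogenase regenerates its cofactor.

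On the arrays, genes whose mean level in a line reached the overall median of that line were kept, which is 5.31 on the arrays labelled HepG2 and 5.28 in K562. That left 7116 genes per line, 6204 in both and 8028 in either, with 32 members kept on the arrays labelled HepG2, 31 in K562 and 31 in both. ADAR itself was lower in both knockdown arrays, with a difference of -1.69 on the arrays labelled HepG2 (31.0% of the SCR intensity left) and of -1.21 in K562 (43.2% left). Of 17 measured hepatocyte markers 2, CPS1 and FOXA1, were kept on the arrays labelled HepG2, where ALB stood at 3.04 and 2.97 and AFP at 2.89 and 2.85. The name HepG2 is therefore used here only as a label. K562 kept 7 of the 8 erythroid markers that were measured.

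The promoters of these genes were read for the short core that HIF sites share. RefSeq windows of GRCh38.p14, from 250 bases before to 50 after a transcript start, were searched on both strands for ACGTG and GCGTG. Either core was found in a window of 28 of the 30 measured members that had one, against 63.8% of 11386 array genes with a window and 48.4% of all 35116 windows. The cores hold a CG pair, and the members' windows were richer in G and C (median 67.5% against 63.0%) and more numerous per gene (1.93 against 1.44), so the shares are not like for like. ACGTG was found in 20 of the 30 members (29.3% of array genes), GCGTG in 22 (52.4%), and the E-box CACGTG, which contains ACGTG, in 7 (11.3%). NDRG1, BNIP3L and VEGFA had no window in the table.

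Stretches of 8 windows are shown, all upstream of the start, with each core in capitals; where the core lies on the other strand it reads CACGT or CACGC, and an E-box reads CACGTG. The first 4 belong to members that were at least 1.5-fold lower in ADARkd on the arrays labelled HepG2, and the last 4 to glycolytic enzymes, chosen among those with several matches.
KDM3A: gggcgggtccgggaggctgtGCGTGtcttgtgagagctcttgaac
TXNIP: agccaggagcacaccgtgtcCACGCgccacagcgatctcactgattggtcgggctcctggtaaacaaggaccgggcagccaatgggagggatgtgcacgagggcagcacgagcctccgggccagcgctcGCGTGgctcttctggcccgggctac
PFKFB4: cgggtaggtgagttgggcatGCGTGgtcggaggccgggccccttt
ENO2: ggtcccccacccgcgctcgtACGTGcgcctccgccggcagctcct
ALDOC: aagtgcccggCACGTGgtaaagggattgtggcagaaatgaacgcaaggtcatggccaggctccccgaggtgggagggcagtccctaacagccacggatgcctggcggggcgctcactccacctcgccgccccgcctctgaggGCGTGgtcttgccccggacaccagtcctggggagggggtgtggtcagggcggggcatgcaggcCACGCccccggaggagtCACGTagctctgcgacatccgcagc
PGK1: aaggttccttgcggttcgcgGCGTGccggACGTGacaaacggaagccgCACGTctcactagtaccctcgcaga
ENO1: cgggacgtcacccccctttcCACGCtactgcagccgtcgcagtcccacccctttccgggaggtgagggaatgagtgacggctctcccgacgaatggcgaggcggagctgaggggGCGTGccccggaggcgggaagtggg
LDHA: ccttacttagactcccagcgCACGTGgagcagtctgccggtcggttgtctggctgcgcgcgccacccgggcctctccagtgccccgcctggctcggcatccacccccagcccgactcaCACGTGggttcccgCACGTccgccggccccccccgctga
They lie at chr2:86441325-86441369 (plus strand), chr1:145996609-145996762 (minus strand), chr3:48556945-48556989 (minus strand), chr12:6914442-6914486 (plus strand), chr17:28576899-28577145 (minus strand), chrX:78104017-78104089 (plus strand), chr1:8878734-8878872 (minus strand) and chr11:18394358-18394514 (plus strand). Of the 6 members with a window among those at least 1.5-fold lower, 4 held a core, and EGLN3 and P4HA2 did not in these windows; all 23 other kept members with a window held one. A match describes these letters and not binding.

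On the arrays labelled HepG2, HIF targets outside glycolysis lay lower in ADARkd, while glycolytic enzymes lay near the rest of the genes. The median difference of the 15 kept HIF targets was -0.33 and that of the 13 kept enzymes 0.01, against 0.11 for all kept genes. In K562 the medians were -0.50 over 14 HIF targets and -0.10 over 13 enzymes, against -0.07 for all kept genes. Relative to all kept genes, the HIF targets stood at -0.44 on the arrays labelled HepG2 and -0.43 in K562 (-0.34 and -0.51 with no filter), and the enzymes stood at -0.09 and -0.03. Bringing the arrays to a common distribution moved the median of all kept genes on the arrays labelled HepG2 from 0.11 to 0.01. The enzyme median there changed sign with it, to -0.06 after quantile normalization and -0.14 after loess. These medians are descriptions of the lists and carry no test.

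**Figure D1:**
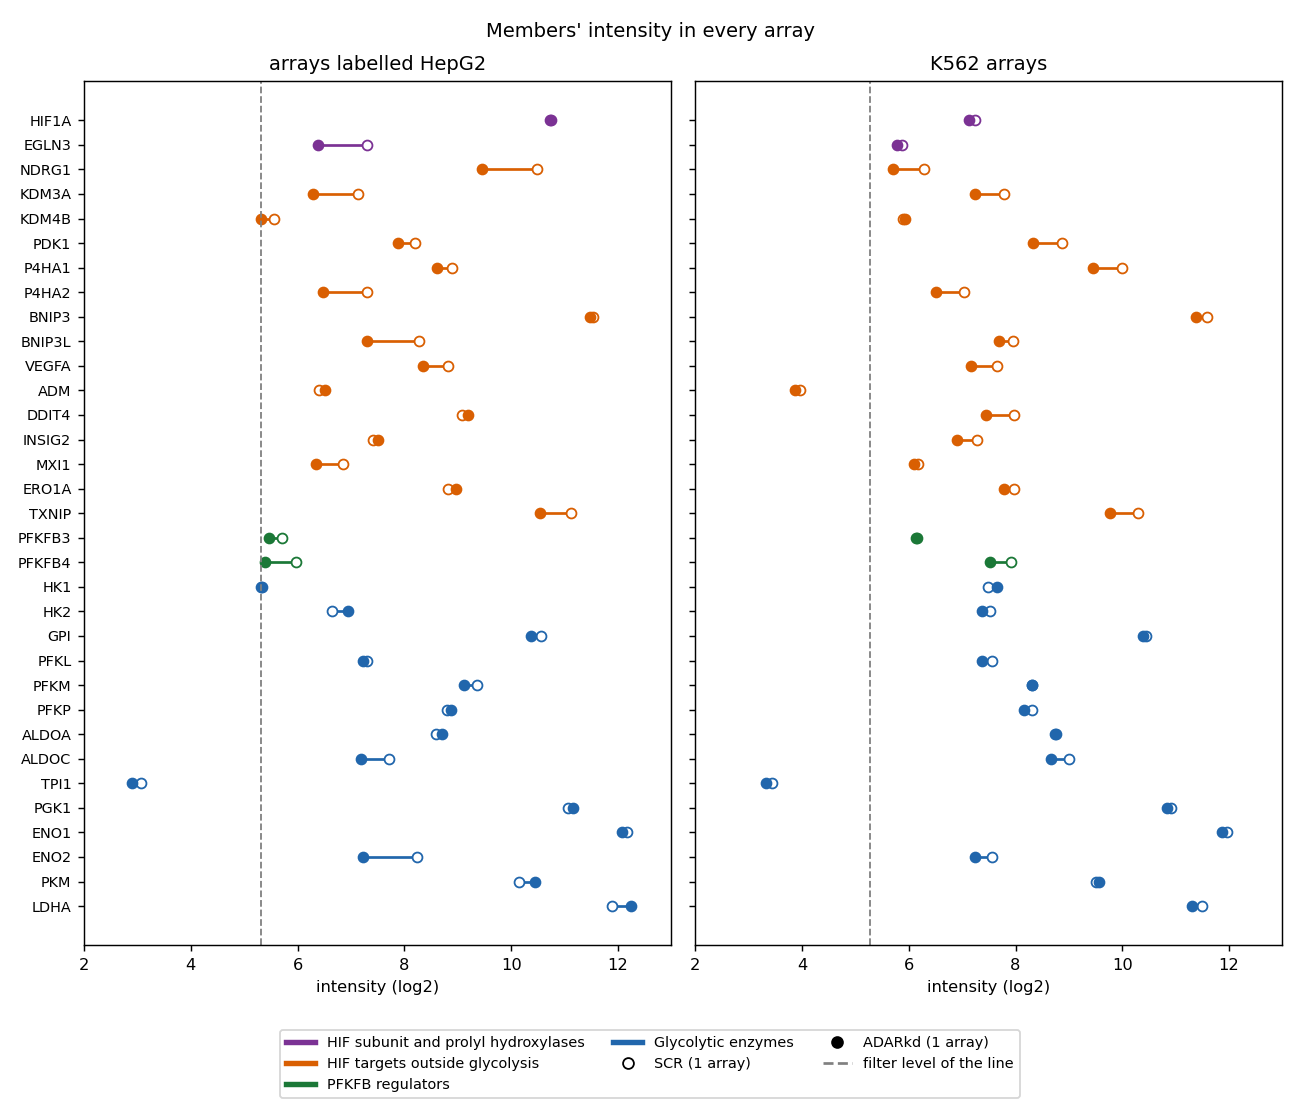
Log2 intensity of each measured member (rows) in the SCR array (open circle) and the ADARkd array (filled circle), for the arrays labelled HepG2 (left) and K562 (right); colours give the group and the dashed line the filter level of the line. Most orange pairs, the HIF targets, have the filled circle to the left, as for NDRG1 (10.48 to 9.44 on the arrays labelled HepG2), while blue pairs such as PGK1 (11.07 to 11.15) lie close together; TPI1 lies under the filter level in every array.

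Single members were read against the spread of all genes. At least 1.5-fold lower in ADARkd on the arrays labelled HepG2 were 8 of 32 kept members, against 5.73% of all kept genes, and 0 were 1.5-fold higher, against 12.4% of all kept genes. The 8 were the HIF targets NDRG1, BNIP3L, KDM3A, P4HA2 and TXNIP, the hydroxylase EGLN3, the regulator PFKFB4 and the enolase ENO2. NDRG1 and ENO2 were at least 2-fold lower, as were 1.57% of kept genes. TXNIP and PFKFB4, both at -0.59, lay just past the 1.5-fold line, and ALDOC (-0.53) and MXI1 (-0.51) just short of it. With the filter at the 75th percentile 4 members were called, NDRG1, BNIP3L, TXNIP and ENO2, out of 22 kept.

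Other markers also moved on the arrays labelled HepG2. Of 11 measured fibroblast and stromal markers 7 were kept. In ADARkd 4 of them were at least 1.5-fold lower and 2 higher, against 5.73% and 12.4% of all kept genes. COL3A1 (-2.42), FN1 (-1.80), FAP (-1.66) and COL1A1 (-1.12) were lower, and LUM (0.78) and DCN (0.64) higher. VIM, also kept, stood at 9.41 in SCR and 8.85 in ADARkd (-0.55), just short of 1.5-fold. The summed intensity over all 11 measured genes of the list was near equal, 2207 in SCR and 2206 in ADARkd, although single genes moved in both directions. Of 7 measured epithelial markers 5 were kept, and the sums over all 7 were 1565 in SCR and 2277 in ADARkd. Of the 5 kept, 3 were at least 1.5-fold higher and 1 lower, against 12.4% and 5.73% of all kept genes. None of 7 measured lymphocyte markers was kept. In K562 no kept marker of these lists was 1.5-fold apart, against 0.759% of all kept genes lower and 0.267% higher. The part of these markers in the members' differences was not tested. In bulk RNA, fewer cells of a type and less RNA per cell cannot be told apart.

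The differences of the HIF subunit and its hydroxylase lay far apart on the arrays labelled HepG2 and close together in K562. HIF1A, the oxygen-regulated alpha subunit, stood at 10.72 in SCR and 10.75 in ADARkd on the arrays labelled HepG2, a difference of 0.03. In K562 it stood at 7.24 and 7.12, a difference of -0.12. Its transcript was thus at about the same level in both arms of each line, and the arrays do not measure the protein. EGLN3, a prolyl hydroxylase that is itself induced by HIF, stood at 7.30 and 6.39 on the arrays labelled HepG2, a difference of -0.91 that placed it at number 149 from the lowest of 7116 kept genes. In K562 it stood at 5.87 and 5.78, a difference of -0.09, close to the median of all kept genes there.

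Among HIF targets outside glycolysis, NDRG1, a stress-responsive gene long used as a hypoxia marker, had the lowest difference in both lines. It stood at 10.48 in SCR and 9.44 in ADARkd on the arrays labelled HepG2, 2.05-fold lower (number 101 from the lowest). In K562 it stood at 6.28 and 5.71, 1.49-fold lower (number 57). The ADARkd array lay under the SCR array in each line, and the level in K562 was far under that on the arrays labelled HepG2 in both arms.

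The histone demethylase KDM3A, which removes methyl groups from histone H3 lysine 9 and needs oxygen to do so, stood at 7.12 and 6.28 on the arrays labelled HepG2, a difference of -0.84. In K562 it stood at 7.78 and 7.24, a difference of -0.54 (number 86 of 7116). KDM4B, a demethylase of the same broad enzyme class, differed by -0.24 and 0.04, smaller than those of KDM3A. Its ADARkd level on the arrays labelled HepG2, 5.32, lay at the filter level.

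P4HA1 and P4HA2 are the catalytic subunits of the prolyl 4-hydroxylase that stabilises collagen. P4HA2 stood at 7.29 and 6.47 on the arrays labelled HepG2 (-0.83) and at 7.03 and 6.52 in K562 (-0.51). A dimmer cluster of P4HA2, with a mean level of 4.41, differed by -0.04 and 0.16, so the gene's clusters disagree; as the mean of both clusters the gene stood at -0.43 on the arrays labelled HepG2 and -0.18 in K562, past neither 1.5-fold in the first nor 1.25-fold in the second. P4HA1 stood at 8.89 and 8.60 on the arrays labelled HepG2 (-0.29) and at 9.99 and 9.44 in K562 (-0.55, number 77). P4HA2 thus had the larger difference of the pair on the arrays labelled HepG2, and in K562 they lay within 0.04 of each other.

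BNIP3 and BNIP3L are related outer-membrane receptors that direct mitochondria to autophagy. BNIP3L stood at 8.26 and 7.29 on the arrays labelled HepG2, leaving 51.0% of the SCR intensity, while BNIP3 stood at 11.52 and 11.47 there. In K562 the levels were 7.95 and 7.69 for BNIP3L (-0.26), and 11.58 and 11.38 for BNIP3 (-0.20). The pair thus lay far apart in difference on the arrays labelled HepG2 and close together in K562.

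TXNIP, an inhibitor of thioredoxin and of glucose uptake, stood at 11.12 and 10.53 on the arrays labelled HepG2 and at 10.30 and 9.77 in K562. Its differences of -0.59 and -0.52 were close to each other, as were those of VEGFA, the main angiogenic growth factor. VEGFA stood at 8.82 and 8.34 on the arrays labelled HepG2 (-0.48) and at 7.65 and 7.16 in K562 (-0.49). PDK1, the kinase that shuts pyruvate dehydrogenase, stood at 8.20 and 7.87 on the arrays labelled HepG2 (-0.33) and at 8.87 and 8.32 in K562 (-0.55). All 3 genes were lower in the knockdown array of both lines.

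Several targets had differences below 0 in K562 and near the median of all kept genes (0.11) on the arrays labelled HepG2. DDIT4, an inhibitor of mTORC1 signalling, stood at 7.97 and 7.44 in K562 (-0.53, number 90) but at 9.08 and 9.19 on the arrays labelled HepG2 (0.11). INSIG2, which retains the sterol sensor in the endoplasmic reticulum, stood at 7.28 and 6.91 in K562 (-0.38) and at 7.41 and 7.51 on the arrays labelled HepG2 (0.10). ERO1A, an oxidase of protein folding in the endoplasmic reticulum, differed by -0.18 in K562 and 0.16 on the arrays labelled HepG2. After loess, DDIT4 (-0.05), INSIG2 (-0.03) and ERO1A (-0.0007) were below 0 on the arrays labelled HepG2 too, so their sign there depends on normalization. The difference between the lines was not tested, since it leaves no residual degrees of freedom.

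MXI1, a MYC antagonist, stood at 6.85 and 6.34 on the arrays labelled HepG2 (-0.51) and at 6.18 and 6.10 in K562 (-0.09). ADM, the vasodilator peptide adrenomedullin, differed by 0.12 on the arrays labelled HepG2 and lay under the filter in K562, at 3.96 and 3.87. In all, 11 of 15 kept HIF targets were below 0 on the arrays labelled HepG2 and 13 of 14 in K562, against 39.1% and 66.7% of all kept genes.

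PFKFB enzymes set the level of fructose 2,6-bisphosphate, the activator of phosphofructokinase. PFKFB4 stood at 5.97 and 5.38 on the arrays labelled HepG2 (-0.59) and at 7.92 and 7.52 in K562 (-0.40). PFKFB3 stood at 5.71 and 5.46 on the arrays labelled HepG2 (-0.25) and at 6.13 and 6.16 in K562 (0.02). PFKFB4 was thus the lower of the pair in both lines, although on the arrays labelled HepG2 both lay near the filter level, where the size of a difference is uncertain.

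The glycolytic enzymes were taken in pathway order, and the first steps gave small differences. At the first step, hexokinase HK1 had differences of 0.01 on the arrays labelled HepG2 and 0.17 in K562, and HK2, the inducible form, of 0.30 and -0.15. The isomerase GPI differed by -0.19 and -0.06. The phosphofructokinase subunits PFKL, PFKM and PFKP, which form the committed step, differed by -0.08, -0.24 and 0.08 on the arrays labelled HepG2 and by -0.19, -0.01 and -0.14 in K562. None of these genes reached 1.25-fold in either line.

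Aldolase splits the 6-carbon sugar, and its 2 measured isoforms parted. ALDOC, the form best known from brain, stood at 7.71 and 7.18 on the arrays labelled HepG2 (-0.53) and at 9.01 and 8.66 in K562 (-0.35). ALDOA, the widespread form, stood at 8.59 and 8.70 on the arrays labelled HepG2 (0.12) and at 8.76 and 8.74 in K562 (-0.02). ALDOC was lower in the knockdown array of both lines, and ALDOA was nearly level.

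Enolase split likewise, with a wider gap than aldolase on the arrays labelled HepG2 and a narrower one in K562. ENO2, the gamma or neuronal enolase that is also induced by hypoxia, stood at 8.23 in SCR and 7.23 in ADARkd on the arrays labelled HepG2, with 49.9% of the SCR intensity left (number 111 of 7116). In K562 it stood at 7.56 and 7.24, 1.25-fold lower. ENO1, the widespread alpha enolase, stood at 12.17 and 12.08 on the arrays labelled HepG2 (-0.08) and at 11.96 and 11.86 in K562 (-0.10). Only ENO2 of the pair was 1.25-fold lower or more.

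The steps between and after gave small differences. TPI1, triosephosphate isomerase, lay under the filter in all 4 arrays, at 2.90 to 3.44, although every cell uses the enzyme, so its cluster is not read here. PGK1, the first ATP-yielding kinase and a classical HIF target, stood at 11.07 and 11.15 on the arrays labelled HepG2 and at 10.91 and 10.84 in K562. PKM, pyruvate kinase, stood at 10.14 and 10.44 on the arrays labelled HepG2 (0.30) and at 9.51 and 9.57 in K562 (0.06). LDHA, which makes lactate, stood at 11.89 and 12.24 on the arrays labelled HepG2, the highest difference of any kept member (0.35), and at 11.50 and 11.31 in K562 (-0.19). PGK1, PKM and LDHA thus stood level or higher in ADARkd on the arrays labelled HepG2, where NDRG1 and ENO2 were lower.

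In K562 the spread of all genes was narrower, with an SD of differences of 0.19 against 0.47. The HIF target median relative to all kept genes was about as low there (-0.43) as on the arrays labelled HepG2 (-0.44). No member was 1.5-fold apart there, against 0.759% of kept genes at least 1.5-fold lower and 0.267% higher. A 1.25-fold line was added after seeing this: 12 of 31 kept members were at least 1.25-fold lower, against 8.38% of kept genes, and 0 were higher, against 2.09%. Of the 12, 9 were HIF targets (NDRG1, KDM3A, PDK1, P4HA1, P4HA2, VEGFA, DDIT4, INSIG2 and TXNIP) and the others were PFKFB4, ALDOC and ENO2. After quantile normalization the count was 8 and after loess 9.

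**Figure D2:**
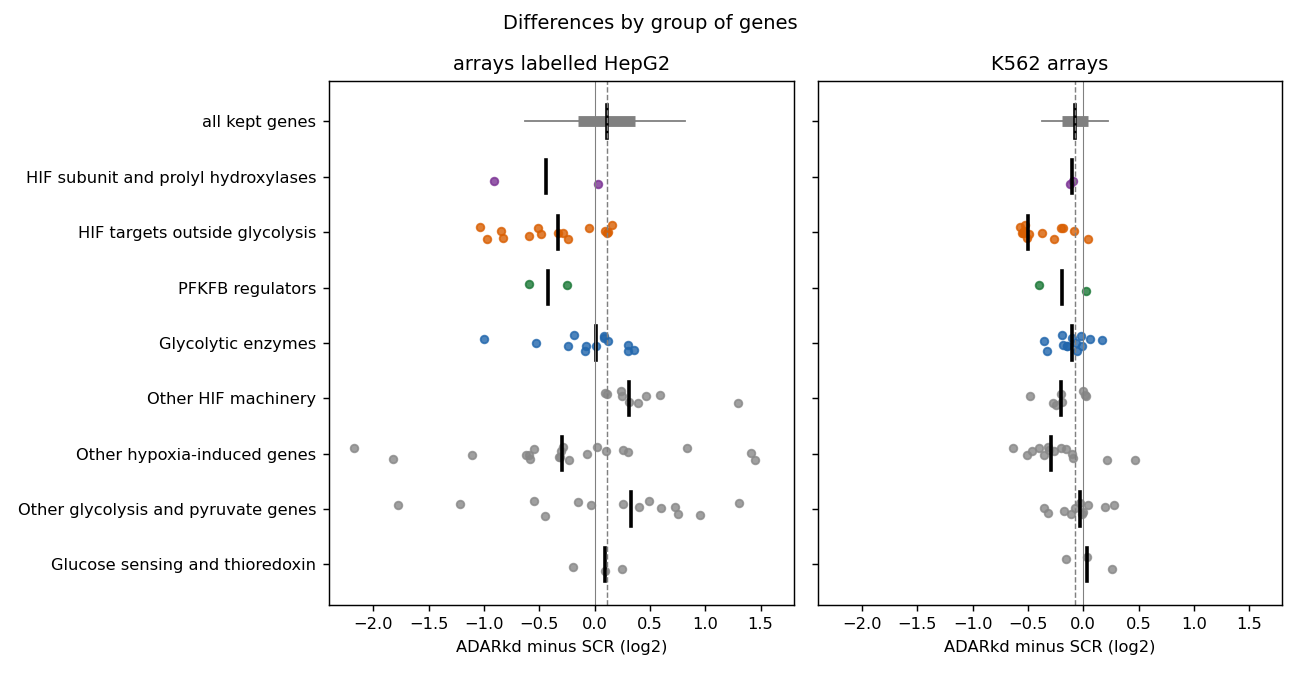
ADARkd minus SCR (log2) of kept genes, 1 point per gene, by group (rows), for the arrays labelled HepG2 (left) and K562 (right). Short black bars mark medians, the dashed line the median of all kept genes, and the top row gives the quartiles (thick) and the 5th to 95th percentiles (thin) of all kept genes; HIF targets have medians of -0.33 and -0.50, and glycolytic enzymes of 0.01 and -0.10.

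The members' differences in the lines were then set side by side. The lines share no array, but the titles of both knockdown arrays carry the same number. Agreement between the lines is therefore not a check across different siRNAs. Of 31 members kept in both lines, 18 were lower in ADARkd in both, against 26.2% of 6204 genes, and 9 were at least 1.25-fold lower in both, against 1.74%. The 9 were NDRG1, KDM3A, PDK1, P4HA2, VEGFA, TXNIP, PFKFB4, ALDOC and ENO2; PDK1 on the arrays labelled HepG2 (-0.33) and ENO2 in K562 (-0.33) lay just past that line, and P4HA2 was past it in both lines only by its brighter cluster. Below the median difference of kept genes in both lines were 19 members, against 25.7%. By group, 10 of 14 HIF targets and 6 of 13 enzymes were lower in both. Across the 31 members the differences of the lines correlated at r = 0.48 (Spearman 0.43), against 0.03 (0.04) over all 6204 genes. Within groups r was 0.30 (Spearman 0.36) over 14 HIF targets and 0.54 (0.27) over 13 enzymes. Genes are not independent, and these values are descriptions.

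**Figure D3:**
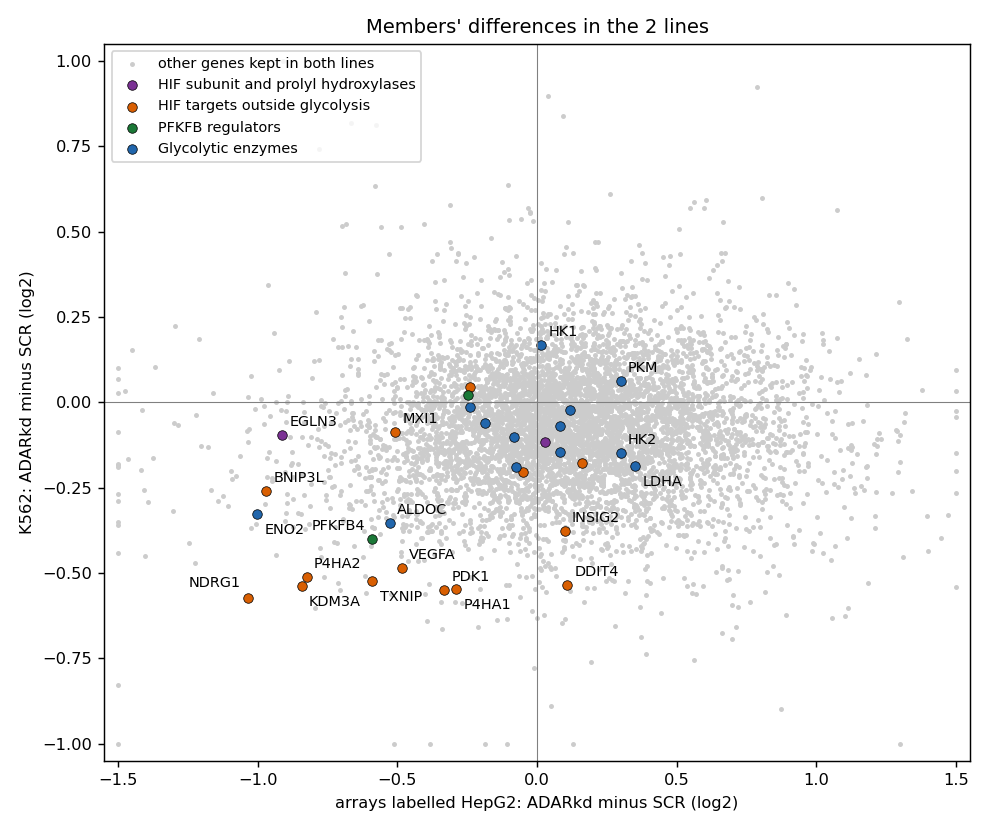
ADARkd minus SCR (log2) on the arrays labelled HepG2 (x axis) against K562 (y axis) for genes kept in both lines, 1 point per gene, members coloured by group and others grey; grey points beyond the axes are drawn at the edge. The lower left holds NDRG1, KDM3A, P4HA2, TXNIP, VEGFA and PDK1, while LDHA, HK2 and PKM lie between 0.30 and 0.35 on the x axis.

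The effect shared by both lines was fitted with limma, with line and arm as terms and 1 residual degree of freedom. No member passed at an adjusted p under 0.05 (the limma adjusted p was 0.9996 for each), and neither did any of the 6204 genes (0%). At an unadjusted p under 0.05 by limma 8 members were lower and 0 higher, against 1.97% and 0.919% of all genes. Those were NDRG1 (-0.80 ± 0.22, SE, 2 arrays per arm), KDM3A (-0.69 ± 0.21), P4HA2 (-0.67 ± 0.21), ENO2 (-0.67 ± 0.24), BNIP3L (-0.62 ± 0.24), TXNIP (-0.56 ± 0.15), PFKFB4 (-0.50 ± 0.20) and VEGFA (-0.48 ± 0.21). These genes fail the correction over all genes. The P4HA2 effect was -0.30 as the mean of its clusters.

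Other genes of the pathway were read from lists of the same kind. Of 20 kept other hypoxia-induced genes on the arrays labelled HepG2, 5 were at least 1.5-fold lower and 3 higher, against 5.73% and 12.4% of all kept genes, with a median of -0.29. LOX, which crosslinks collagen, stood at 8.20 and 6.02 (-2.18), and CXCR4, a chemokine receptor, at 8.95 and 7.13 (-1.82). STC2, a secreted glycoprotein that also answers to endoplasmic reticulum stress, differed by 1.45, and EFNA1, an ephrin ligand, by 1.42. In K562 the median was -0.29 over 14 kept genes, with 5 at least 1.25-fold lower and 1 higher, against 8.38% and 2.09% of all kept genes; BHLHE40, a repressor of the circadian clock, was lowest (-0.63) and AK4, a mitochondrial adenylate kinase, highest (0.47). These genes included larger differences in both directions than the members did.

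Among the rest of the HIF machinery, 2 of 9 kept genes were at least 1.5-fold higher on the arrays labelled HepG2, against 12.4% of all kept genes. None of the 9 was below 0 there, against 39.1%, and their median was 0.31 against 0.11. CITED2, which competes with HIF for its coactivators, stood at 6.64 and 7.93 (1.29), and ELOB, a partner of VHL, at 5.25 and 5.84 (0.59). EPAS1, the alpha subunit of HIF-2, differed by 0.47 and VHL by 0.39. In K562 the median of 8 kept genes was -0.20, against -0.07 for all kept genes. VHL (-0.48) was the only 1 at least 1.25-fold lower, against 8.38% of all kept genes, and CITED2 stood at -0.20.

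Of 14 kept genes in the list of other glycolysis and pyruvate genes, 5 were at least 1.5-fold higher and 2 lower on the arrays labelled HepG2, against 12.4% and 5.73% of all kept genes. MPC1 and MPC2, which form the mitochondrial pyruvate carrier, differed by 1.30 and 0.95. PDK4, another kinase that shuts pyruvate dehydrogenase, differed by -1.21, and ENO3, the muscle enolase, by -1.78, ending at 4.61, under the filter level. In K562 none of 11 kept genes was 1.5-fold apart, against 0.759% of all kept genes lower and 0.267% higher. PCK2 had the largest difference there (-0.36). The glucose sensors MLXIP and MLX and the thioredoxin reductase TXNRD1 differed by -0.19, 0.10 and 0.25 on the arrays labelled HepG2, and by 0.03, 0.26 and -0.16 in K562.

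Lastly the levels of the members were compared between the lines with limma, on both arrays of each. HIF1A was lower in K562 by 3.56 (K562 minus HepG2 -3.56 ± 0.19, SE, n = 2 arrays; adjusted p = 1.43e-05 by limma), and NDRG1 by 3.96 (-3.96 ± 0.22; limma adjusted p = 1.68e-05). Higher on the arrays labelled HepG2 at an adjusted p under 0.05 and at least 2-fold were 7 of 32 members, against 14.7% of 8028 genes, and higher in K562 were 3, against 10.3%. Besides HIF1A and NDRG1, the first kind held ADM (-2.54), DDIT4 (-1.43), VEGFA (-1.18), EGLN3 (-1.02) and ERO1A (-1.02). ADM lay under the filter in K562, so its size is uncertain. The second kind held HK1 (2.24), PFKFB4 (2.04) and ALDOC (1.39). HK1 and PFKFB4 lay near the filter level on the arrays labelled HepG2, so the sizes of their differences are uncertain too. EGLN3 and ERO1A did not pass after quantile normalization (-0.97 and -0.96) or with log2(value + 16) (-0.86 and -0.97). The remaining enzymes ranged from -0.94 for PFKM to 0.65 for HK2. Each line's pair of arrays consists of its SCR and ADARkd array, so these p-values measure a spread that is not one between replicate cultures.

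**Figure D4:**
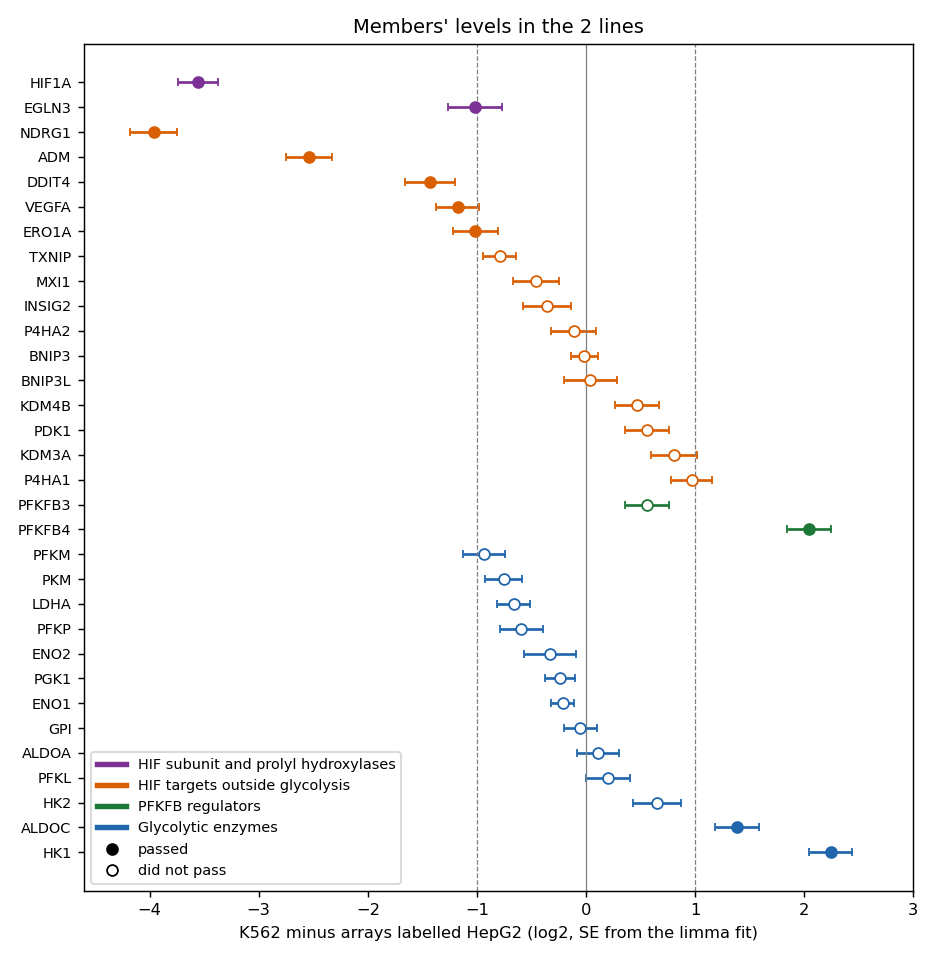
K562 minus the arrays labelled HepG2 (log2) for the 32 members kept in either line, with bars of 1 SE from the limma fit over 2 arrays per line; filled points passed at an adjusted p under 0.05 and 2-fold, open points did not. HIF1A (-3.56) and NDRG1 (-3.96) lie farthest left and HK1 (2.24) farthest right; dashed lines mark 2-fold.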

How the data were processed

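Per the submitters' processing notes, RMA and the build hg18 were used; other steps were not stated. The deposited table holds the authors' linear intensity of each transcript cluster for 4 arrays (column medians 36.1 to 37.0). Log2 was taken here without an offset. Of 17881 clusters 14432 had 1 gene symbol, 2408 several and 1041 none in the platform annotation, and only the first kind was named. Names were checked by Entrez number against a RefSeq table, which matched 14404.

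The members and lists were chosen with earlier results of these data known. Members at least 1.5-fold apart in a line, and the extremes of each group, were given with their arrays' values, and up to 4 genes of each other list; further members are given for completeness. Fits used limma 3.58.1 in R 4.3.3 (lmFit and trended eBayes, two-sided p adjusted by Benjamini-Hochberg over all genes tested). Only the shared fit was tried on simulated data, with the same effect and noise in both lines. The real lines differed in spread. Array number limits the precision. Alternatives were quantile normalization, cyclic loess, no filter and one at the 75th percentile, log2(value + 16), the mean of a gene's clusters, no intensity trend, and another grouping. Figures used matplotlib 3.10.9.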

Additional observations from a re-analysis of the deposited data

Results flagged for a closer look

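Of the 31 members kept in both lines, 11 differed from SCR in opposite directions in the 2 lines, against 3285 of 6204 genes, each from 1 array per arm; none of these contrasts between lines was tested. As K562 difference minus that of the arrays labelled HepG2 (log2), the widest gaps were DDIT4 (-0.643), LDHA (-0.539), INSIG2 (-0.474), HK2 (-0.45) and ERO1A (-0.34), all lower in K562. Smaller gaps of the same sign were found for PFKP (-0.227), PGK1 (-0.15), HIF1A (-0.143) and ALDOA (-0.141). KDM4B (0.285) and PFKFB3 (0.271) ran the other way, higher in K562. The median of all kept genes was 0.11 on the arrays labelled HepG2 and -0.07 in K562, so signs of small differences depend on normalization. After loess, HIF1A (-0.136), DDIT4 (-0.054), INSIG2 (-0.034), ERO1A (-0.0007), PFKP (-0.080), ALDOA (-0.044) and PGK1 (-0.065) were below 0 on the arrays labelled HepG2. LDHA (0.222) and HK2 (0.176) stayed above 0 there. With loess, 22 of 30 members kept in both lines were lower in both, against 27.3% of all genes kept in both.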

How the results depend on the processing

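No paired analysis was possible because the labels give no replicate numbers, beyond the shared fit, in which line is a term and the SCR and ADARkd arrays of a line are compared with each other. With 1 array per line and arm, no array could be left out of a difference within a line. Members at least 1.5-fold apart on the arrays labelled HepG2 numbered 8 as reported, 4 with the filter at the 75th percentile and 13 at 1.25-fold; in K562 they numbered 0 as reported and 12 at 1.25-fold. The HIF target median on the arrays labelled HepG2 was -0.48 after quantile normalization and -0.49 after loess. The enzyme median there was -0.063 after quantile normalization, -0.143 after loess, -0.031 with no filter and -0.075 with the stricter filter, so its sign depends on these settings. With PFKFB3, PFKFB4, ENO2, ALDOC, HK2 and LDHA counted as HIF targets, the K562 median of that group was -0.36. The other alternatives left these counts within 1.5 times and these medians within 0.1, and no member at least 1.5-fold apart changed sign; the causes were not tested. Of 361 differences of single members within a line under the alternatives, 55 moved by over 0.1. The filters, and the cluster mean for members other than P4HA2, cannot change such a difference, so many of the 361 were fixed in advance. Most of the 55 were on the arrays labelled HepG2 after quantile normalization or loess. Of 68 values of K562 minus HepG2, 4 no longer passed. No measure of probe background was used.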
